A study of Mus musculus with 8 samples.

Results

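Hoxb8, Hoxc8, Hoxd8, Hoxa9, Hoxb9, Hoxc9 and Hoxd9 are the Hox genes of paralog groups 8 and 9 in the mouse. They were taken by symbol from the deposited tables, 7 genes of 41325, and all 7 were among the 17067 genes with enough reads to test. Although these paralogs are often called thoracic, 2 of the 7, Hoxc8 and Hoxc9, had no lumbar library as high as any thoracic one. Hoxd9 showed the opposite order, while 1.17% of all genes lacked overlap in either direction. The other 4 overlapped between the segments, so the 7 are called the Hox 8 and 9 genes here.

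Lumbar and thoracic spinal cord was dissected at postnatal day 14 from triple knockout (TKO) mice, which are Mir34a-/-, Mir34bc-/- and Mir449-/-, and from C57BL/6J wild-type (WT) mice. The 4 groups were lumbar TKO, lumbar WT, thoracic TKO and thoracic WT cord, with 2 polyadenylated RNA libraries each, and no group received an agent. The series title ties the work to spinal muscular atrophy, but none of the 8 libraries carries a disease allele in its labels. Whether a library holds 1 mouse or a pool, and whether 2 libraries share a mouse, is not stated, and p-values therefore reflect the spread among libraries, which may be technical.

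Hox genes encode homeodomain transcription factors and lie in 4 clusters, HoxA to HoxD, in which low paralog numbers are active from anterior levels on and high numbers only at caudal levels. In the spinal cord their combination sets which motor columns and pools form at each level. Hoxc9 is known for fixing thoracic motor neuron identity and repressing the limb-level programme, and Hoxc8 for motor pools that supply the forelimb. The paralogs 10 and above belong to the lumbosacral cord. Much of this patterning happens in the embryo, and these libraries show the transcripts present at postnatal day 14.

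The libraries held 16195212 to 20907819 gene reads, of which the 7 genes took 5396 to 8462. The replicate 2 libraries of TKO stood apart from the other 6 libraries. Mitochondrial transcripts made up 4.99% (lumbar) and 6.53% (thoracic) of their reads, against 9.45% to 16.8% elsewhere, and intron reads 6.23% and 6.69%, against 4.39% to 5.22% elsewhere. The neuronal markers, 5 of 5 detected, summed to 2130 to 2250 CPM (gene reads scaled to library size by TMM factors) in lumbar TKO, 2210 to 2220 in lumbar WT, 2160 to 2240 in thoracic TKO and 2420 to 2470 CPM in thoracic WT cord. The 6 motor neuron markers summed to 89.3 to 95.6 CPM in lumbar TKO, 125 to 130 in lumbar WT, 94.5 to 120 in thoracic TKO and 89.9 to 120 CPM in thoracic WT cord. Both sums mix genes that differ. In thoracic cord 4 motor neuron markers were higher and 2 lower in TKO than in WT, and of the neuronal markers 2 were higher and 3 lower. Thoracic Prph had 43.6 and 37.2 CPM in TKO, against 24.3 and 22 CPM in WT. Thoracic Slc5a7 had 43.9 and 26.9 CPM in TKO, against 73.5 and 46.9 CPM in WT. The 2 kidney genes, a check for a tissue that should be absent, reached at most 0.103 CPM. The 6 Schwann cell markers, all detected, summed to 249 to 1370 CPM in lumbar TKO and 1200 to 2030 CPM in lumbar WT, against 175 to 347 CPM in thoracic TKO and 140 to 298 CPM in thoracic WT cord. Lumbar TKO replicate 1 lay within the thoracic range, and Sox10, 1 of the 6, ran between 109 and 182 CPM in lumbar and between 71.6 and 205 CPM in thoracic libraries. None of the 6 passed the test between segments, and their part in the results was not tested.

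The HoxA, HoxB and HoxC clusters also hold the genes of miR-196, microRNAs known for silencing Hox 8 messages, and the Mir34 and Mir449 loci deleted in the TKO mice encode microRNAs of another seed family. The mature sequences are shown because the 3' untranslated regions of the 7 genes were searched for matches to both seeds (bases 2 to 8, in capitals). They come from RefSeq on GRCm38.p6. The mature miR-196 sequences lie at chr11:96265187-96265208 and chr15:102973365-102973386 (miR-196a) and at chr6:52230129-52230150 on the minus strand (miR-196b, inside Hoxa9).
mmu-miR-196a-5p: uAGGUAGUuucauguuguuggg
mmu-miR-196b-5p: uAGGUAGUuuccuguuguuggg
mmu-miR-34a-5p: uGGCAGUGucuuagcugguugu
mmu-miR-34b-5p: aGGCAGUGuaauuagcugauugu
mmu-miR-449a-5p: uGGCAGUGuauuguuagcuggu
mmu-miR-449c-5p: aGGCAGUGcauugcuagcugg

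The longest annotated 3' untranslated region of each gene (GENCODE M21 on GRCm38, 787 bases in Hoxd9 to 1839 in Hoxb9) was searched on the transcript strand. The heptamer CACTGCC, which pairs with the seed of the deleted microRNAs, was in none of the 7. Among 3' untranslated regions within 20% of each gene's length, 10.1% to 21.1% hold it. Shorter matches were not searched, and the Hoxb8 window below holds ACTGCC, which pairs with bases 2 to 7 of the deleted microRNAs. The heptamer ACTACCT, which pairs with the miR-196 seed, occurred at 2 places in Hoxc8 and 1 in Hoxa9, where 3.85% and 4.97% of regions of like length hold it at all. Along its whole length miR-196a paired best with Hoxb8, by 21 Watson-Crick pairs and 1 G:U pair of 22, and 2 of 14943 genes had a window with as many pairs. The windows follow, with capitals for bases in a Watson-Crick pair in the Hoxb8 window (chr11:96284888-96284909, plus strand) and for the heptamer in the others. The Hoxc8 sites are at chr15:102992974-102992997 and chr15:102993731-102993754 on the plus strand, and the Hoxa9 site is at chr6:52223900-52223923 on the minus strand.
Hoxb8 window: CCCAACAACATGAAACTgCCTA
Hoxc8 first site: gacactcacaactctaACTACCTg
Hoxc8 second site: aataaatctttaacatACTACCTa
Hoxa9 site: agcaaaaggaaagaaaACTACCTt
The miR-196 precursors had 0 reads in all 8 libraries for Mir196b and Mir196a-2 and 0 to 2 reads for Mir196a-1, in libraries of polyadenylated RNA that do not capture mature microRNAs.

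Levels were compared between genes per exon length, in the authors' RPKM (reads per kilobase of exon, scaled to library size). The HoxB genes were the most abundant at both levels. Hoxb8, whose loss in mice is known for excessive grooming, averaged 47.4 ± 6.10 RPKM in lumbar and 45.3 ± 12.6 RPKM in thoracic cord (SD, n = 4 libraries of both genotypes each). Hoxb9 averaged 42.7 ± 6.17 RPKM in lumbar and 33.0 ± 4.74 RPKM in thoracic cord, and in both segments its range overlapped that of Hoxb8. The order below them depended on the segment. In lumbar cord Hoxd8 (17.4 ± 2.78 RPKM), Hoxd9 (10.1 ± 1.40 RPKM), Hoxa9 (6.99 ± 0.952 RPKM), Hoxc8 (6.38 ± 1.24 RPKM) and Hoxc9 (2.19 ± 0.444 RPKM) followed, with Hoxa9 and Hoxc8 closer than their spread. In thoracic cord Hoxd8 (13.7 ± 1.70 RPKM) and Hoxc8 (13.3 ± 3.32 RPKM) were level within their spread. Hoxa9 (6.22 ± 1.03 RPKM) came next, and Hoxc9 (3.53 ± 0.273 RPKM) and Hoxd9 (3.36 ± 1.25 RPKM) were level within their spread.

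**Figure D1:**
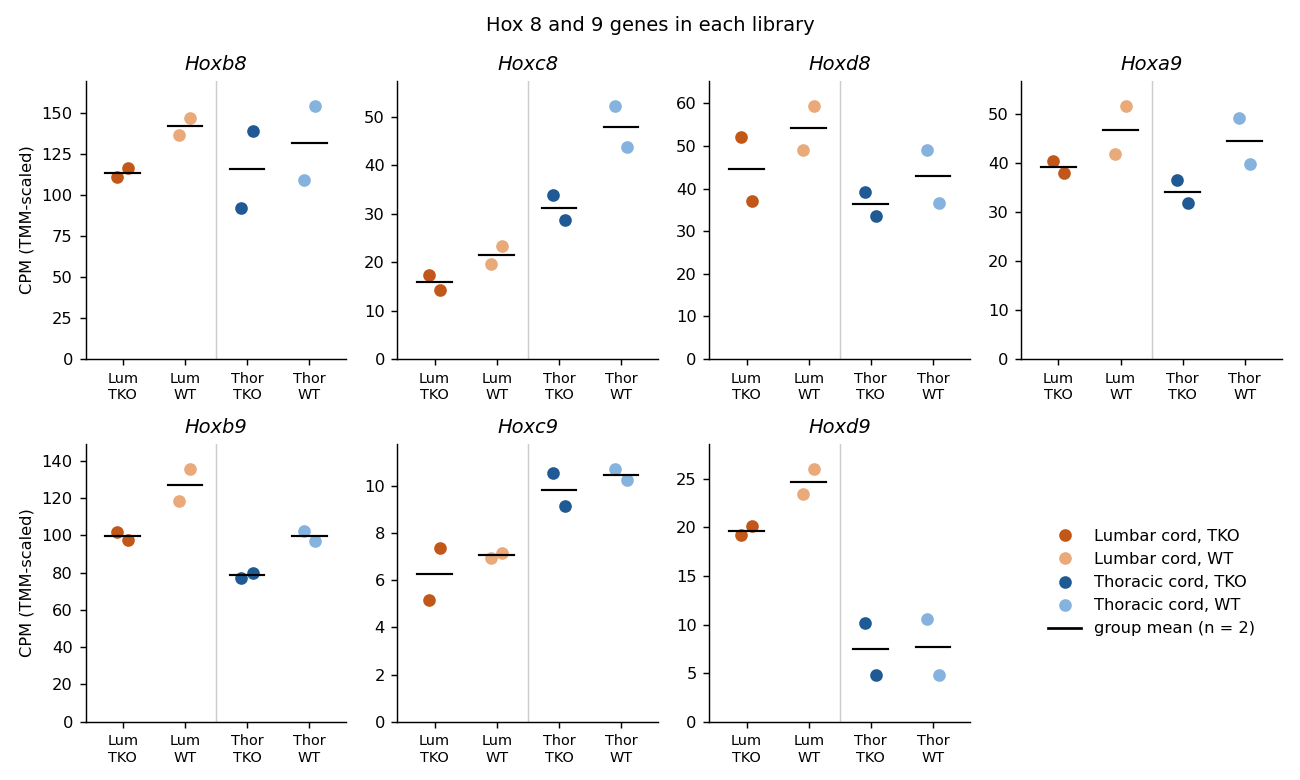
CPM (y axis), scaled by TMM factors, of the 7 genes in each library (points) with the mean of each group (line, n = 2). The lumbar points of Hoxc8 and Hoxc9 lie below all thoracic points, those of Hoxd9 lie above, and the other 4 genes overlap between segments.

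The main comparison asked how the 7 genes differ between lumbar and thoracic cord in each genotype. Over both genotypes Hoxc8 fell to 18.6 ± 3.79 CPM in lumbar cord, against 39.6 ± 10.5 CPM in thoracic cord (SD, n = 4), and it was the 1 gene of the 7 that passed the quasi-likelihood test of edgeR, with p adjusted over all 17067 genes by Benjamini-Hochberg. Of all genes, 0.082% passed, and Hoxc8 was 1 of the 3 called lower in lumbar cord (0.0176%). Hoxd9 was 2.90-fold higher and Hoxc9 1.53-fold lower in lumbar cord without passing the test, and Hoxb8 was nearly level. The 3 genes whose 4 lumbar and 4 thoracic libraries did not overlap were Hoxc8, Hoxc9 and Hoxd9, against 1.17% of all genes.

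Hoxc8 lies at chr15:102990607-102994111 on the plus strand (mm10, as all gene positions given). It had 17.4 and 14.3 CPM in lumbar TKO and 19.6 and 23.3 CPM in lumbar WT libraries, against 33.8 and 28.7 CPM in thoracic TKO and 52.2 and 43.7 CPM in thoracic WT. Every lumbar library was below every thoracic one, in either genotype. The log2 difference, lumbar minus thoracic, was −1.07 (SE 0.14, adjusted p = 0.0341 by edgeR's quasi-likelihood test) over both genotypes, and lower in 4 of 4 lumbar libraries than in any thoracic one. Within a genotype it was −0.98 (SE 0.20, adjusted p = 0.634) in TKO and −1.16 (SE 0.19, adjusted p = 0.253) in WT, and neither passed. Of all genes, edgeR called 0.0469% in TKO and 0.041% in WT. DESeq2 called Hoxc8 in either genotype (adjusted p = 0.02 in TKO and 0.000374 in WT), and of all genes it called 0.105% in TKO and 0.117% in WT. The call over both genotypes held in 13 of 23 alternatives and was lost without any 1 of 7 libraries, all but lumbar TKO replicate 1 (log2 −1.14 to −1.0, adjusted p 0.0396 to 0.246 over the 8 fits).

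Most Hoxc8 reads are not counted as unique to it. The deposited tables gave 5.02% of Hoxc8 reads (219 of 4361) and 1.12% of Hoxc9 reads (14 of 1248) as unique. The 1 other gene model in the tables that runs across both, Hoxc5 (chr15:102967443-103017429), had 146 reads that were not unique, against 4142 of Hoxc8, and how the counting shared such reads is not given in the sources used here. Of the 219 unique Hoxc8 reads 216 spanned 2 exons, so the unique and the exon-exon reads are nearly the same reads. Exon-exon reads of Hoxc8 numbered 60 in lumbar and 156 in thoracic cord, a ratio of 0.402 (95% counting interval 0.293 to 0.545, for counting error only). Per library these exon-exon reads were 14 and 7 in lumbar TKO and 27 and 12 in lumbar WT, against 41 and 44 in thoracic TKO libraries and 28 and 43 in thoracic WT. Scaled to library size, they were 0.725 and 0.406 CPM in lumbar TKO and 1.51 and 0.638 CPM in lumbar WT, against 2.27 and 2.47 CPM in thoracic TKO and 1.43 and 2.21 CPM in thoracic WT. On that scale the segments overlapped in WT, where lumbar replicate 1 was above thoracic replicate 1, and did not overlap in TKO. Hoxc6 and Hoxc10, named below, were also counted mostly by reads that are not unique. Per library, Hoxc6 had 2 to 12 unique reads, with 197 to 410 gene reads. Hoxc10 had 15 to 247 unique reads, with 97 to 985 gene reads.

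Hoxc9 (chr15:102976439-102985099, plus strand), the determinant of thoracic motor columns, moved the same way at a lower level. It had 5.18 and 7.37 CPM in lumbar TKO and 6.93 and 7.18 CPM in lumbar WT, against 10.5 and 9.14 CPM in thoracic TKO and 10.7 and 10.2 CPM in thoracic WT. The segments did not overlap in either genotype. The log2 difference was −0.61 (SE 0.16, unadjusted p = 0.00385, adjusted p = 1 by edgeR's quasi-likelihood test), with −0.65 in TKO and −0.57 in WT. It did not pass over both genotypes or within either one. Over its 22 alternatives the adjusted p ran between 0.104 and 1.

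Hoxd9 (chr2:74697727-74700208, plus strand), known together with Hoxd10 for hindlimb nerves and locomotion in mice, had the largest difference of the 7 between the segments. It had 19.2 and 20.1 CPM in lumbar TKO and 23.4 and 26.0 CPM in lumbar WT, against 10.1 and 4.82 CPM in thoracic TKO and 10.6 and 4.84 CPM in thoracic WT. Lumbar libraries were higher without overlap, and among thoracic libraries replicate 1 was above replicate 2 in both genotypes. The log2 difference was 1.53 (SE 0.28, unadjusted p = 0.000381, adjusted p = 0.254 by edgeR's quasi-likelihood test) over both genotypes, 1.39 in TKO (adjusted p = 1) and 1.68 in WT (adjusted p = 0.807). The value in TKO was 0.95 without thoracic TKO replicate 2 and 2.02 without thoracic TKO replicate 1, and that in WT was 1.22 without thoracic WT replicate 2 and 2.35 without thoracic WT replicate 1. Over both genotypes it passed in 3 of 23 alternatives. These were DESeq2 (adjusted p = 2.57e-05, with 0.199% of all genes called), a replicate block (log2 1.61, adjusted p = 0.024, with 0.27% called) and a fit without both thoracic replicate 1 libraries (log2 2.19, adjusted p = 0.0076, with 0.0802% called). DESeq2 also called it within WT (adjusted p = 0.0152). Without those 2 libraries the Hoxc8 difference was −0.94, with an adjusted p of 0.502.

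Hoxb9 (chr11:96271457-96276595, plus strand) was 1.27-fold higher in lumbar cord in either genotype. It had 102 and 97.6 CPM in lumbar TKO and 118 and 136 CPM in lumbar WT, against 77.2 and 80.01 CPM in thoracic TKO and 102 and 97.0 CPM in thoracic WT. Within each genotype the segments did not overlap, but thoracic WT libraries reached the lumbar TKO level. The log2 difference was 0.35 (SE 0.10, unadjusted p = 0.00787, adjusted p = 1 by edgeR's quasi-likelihood test). At an unadjusted p under 0.05, 4 of the 7 genes (Hoxc8, Hoxb9, Hoxc9 and Hoxd9) differed over both genotypes, against 2.41% of all genes.

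Hoxd8, Hoxa9 and Hoxb8 showed no difference beyond the spread between libraries. Hoxd8 (chr2:74704615-74707933, plus strand) had 52.1 and 37.1 CPM in lumbar TKO and 49.1 and 59.3 CPM in lumbar WT, against 39.3 and 33.5 CPM in thoracic TKO and 49.0 and 36.7 CPM in thoracic WT (log2 0.32, SE 0.16, adjusted p = 1 by edgeR's quasi-likelihood test). The antisense transcript Hoxd3os1 overlaps Hoxd8 and was counted with 80 to 118 reads per library. Hoxa9 (chr6:52223100-52231089, minus strand), also a regulator of blood stem cells, had 40.3 and 37.9 CPM in lumbar TKO and 41.7 and 51.5 CPM in lumbar WT, against 36.4 and 31.7 CPM in thoracic TKO and 49.2 and 39.7 CPM in thoracic WT (log2 0.13, SE 0.13, adjusted p = 1). The lumbar and thoracic values of both genes were interleaved.

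Hoxb8 (chr11:96281905-96285315, plus strand) had 111 and 116 CPM in lumbar TKO and 137 and 147 CPM in lumbar WT, against 91.9 and 139 CPM in thoracic TKO and 109 and 154 CPM in thoracic WT. The thoracic libraries enclosed the lumbar ones, with replicate 1 below replicate 2 in both genotypes. The log2 difference was 0.04 (SE 0.16, adjusted p = 1 by edgeR's quasi-likelihood test), and its sign turned in some alternatives. Of its exon reads 0.145% spanned 2 exons, 27 reads in all, while the shares of the other 6 genes ran between 1.01% (Hoxd9) and 4.99% (Hoxc8). Over 12512 tested genes with 500 exon reads or more the median share was 21.7%.

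**Figure D2:**
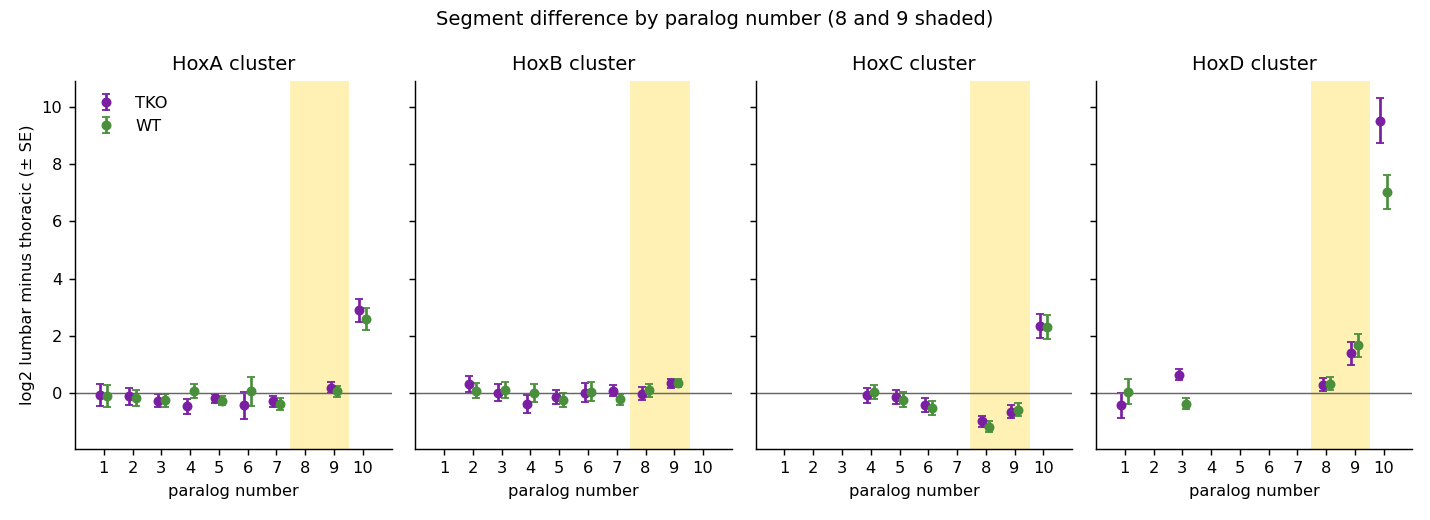
Log2 difference, lumbar minus thoracic, with its SE from edgeR's fit (y axis) of Hox genes 1 to 10 by paralog number (x axis), 1 panel per cluster, in TKO (purple) and WT (green). In the shaded paralogs 8 and 9 the HoxC genes lie below 0 and Hoxd9 lies above 0, while the paralogs below 8 lie between −0.50 (Hoxc6, WT) and 0.65 (Hoxd3, TKO) and the 10 genes lie above 0.

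Set against their cluster neighbours, the 7 genes stood between paralogs of which none was called and paralogs called in lumbar cord. Of the paralogs 1 to 4, 10 were tested, none was called, 0 had an unadjusted p under 0.05 and the median log2 difference was −0.11. The values of Hoxd3, 1 of these 10, pointed in opposite directions in the genotypes, at 0.65 in TKO (SE 0.18, adjusted p = 1 by edgeR's quasi-likelihood test) and −0.36 in WT (SE 0.18, adjusted p = 0.807). Hoxd3 gene reads, 291 to 587 per library, held 191 to 442 intron reads and 40 to 94 unique reads. Of the paralogs 5 to 7, 8 of 8 were tested, none was called and 7 were below 0 (median −0.18). At an unadjusted p under 0.05, where 2.41% of all genes lay, there were 2, Hoxc6 at −0.46 (SE 0.17, adjusted p = 1) and Hoxa7 at −0.33 (SE 0.14, adjusted p = 1 by edgeR's quasi-likelihood test). Of the paralogs 10 to 13, 8 of 12 were tested and 8 of 8 were called higher in lumbar cord by edgeR's quasi-likelihood test. Of all 17067 genes, 11 were called higher there. For 5 of these 8 paralogs no thoracic read was counted. Those 5 passed the read filter only through their lumbar libraries, so the direction of a call was fixed in advance. The same holds for Hoxd10, which had 11 thoracic reads against 2194 lumbar ones. With the 5 paralogs without thoracic reads at a lower bound of 3 reads over the 4 thoracic libraries, the median log2 difference was 7.0. The median over the Hox 8 and 9 genes was 0.13, and that over all genes was 0.000825.

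Within the HoxC cluster the step ran from Hoxc9, lower in lumbar libraries, to Hoxc10, called higher there (log2 2.32, SE 0.30, adjusted p = 0.0345 by edgeR's quasi-likelihood test). Hoxc10 had 43.4 and 49.7 CPM in lumbar TKO and 48.7 and 52.4 CPM in lumbar WT, against 10.8 and 7.51 CPM in thoracic TKO and 15.5 and 4.996 CPM in thoracic WT. Within the HoxD cluster the log2 difference was larger at each higher paralog number, at 0.32 for Hoxd8, 1.53 for Hoxd9 and 8.27 for Hoxd10. Hoxd10 passed the read filter only through its lumbar libraries, so its direction was fixed in advance. Hoxd10 had 27.7 and 23.0 CPM in lumbar TKO and 32.6 and 36.2 CPM in lumbar WT, against 0.0555 and 0 CPM in thoracic TKO and 0.51 and 0 CPM in thoracic WT. The thoracic replicate 1 libraries, which had the higher Hoxd9 values, were also the ones with Hoxd10 reads and with the higher Hoxc10 values.

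Because the HoxC genes and Hoxd9 moved in opposite directions, the makeup of the paralog 8 and 9 transcripts differed between segments. The HoxC genes made up 6.25% and 6.24% of the summed RPKM of the 7 genes in lumbar TKO and 6.48% and 6.69% in lumbar WT, against 14.8% and 11.4% in thoracic TKO libraries and 16.7% and 14% in thoracic WT. The ratio of Hoxd9 to Hoxc9 RPKM was 5.49 and 3.86 in lumbar TKO and 4.72 and 4.77 in lumbar WT, against 1.29 and 0.699 in thoracic TKO libraries and 1.22 and 0.601 in thoracic WT. Neither measure overlapped between segments. Both are built from Hoxc8, Hoxc9 and Hoxd9, whose libraries had no overlap, so this restates those differences and is no further result. Both also rest on Hoxc8 and Hoxc9 reads, of which 5.02% and 1.12% were unique. The ratio of Hoxd8 to Hoxc8 was 3.08 and 2.72 in lumbar TKO and 2.56 and 2.59 in lumbar WT, against 1.2 and 1.2 in thoracic TKO libraries and 0.962 and 0.867 in thoracic WT. The HoxB share overlapped, at 65.8% and 69.1% in lumbar TKO and 68.6% and 67.1% in lumbar WT, against 61.4% and 71.8% in thoracic TKO libraries and 60.3% and 69.9% in thoracic WT. In such bulk samples fewer cells expressing a gene and less RNA per cell cannot be told apart.

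**Figure D3:**
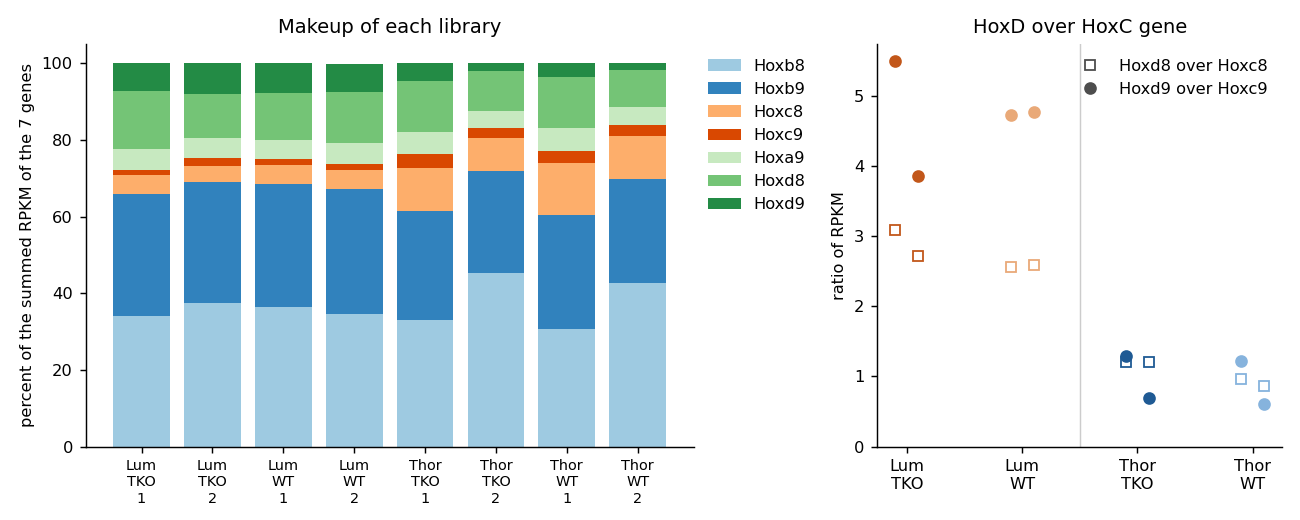
Left, the share of each of the 7 genes in their summed RPKM in each library, in percent. Right, the ratio of HoxD to HoxC RPKM in each library (filled circles, Hoxd9 over Hoxc9; open squares, Hoxd8 over Hoxc8), which lies at 2.56 or more in lumbar and at 1.29 or less in thoracic libraries.

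Over the 8 libraries the HoxC genes went together, as did Hoxa9, Hoxd8 and Hoxb9, as a description with libraries that share segment, genotype and scaling. The Pearson correlation of log2 CPM was 0.844 between Hoxc8 and Hoxc9, and 0.847 between Hoxa9 and Hoxd8, with Hoxb9 at 0.819 and 0.811 to this pair. Hoxd9 went with Hoxd8 (0.739) and Hoxb9 (0.701) and against Hoxc9 (−0.706) and Hoxc8 (−0.683). Hoxb8 followed none of the others closely, with Hoxb9 nearest (0.481). Among 13737 candidate genes outside the Hox family, those most like Hoxc8 were Frem3 (0.956) and Enpep (0.951), and those most like Hoxc9 were Vip and Frem3 (0.942 each). Vip, the vasoactive intestinal peptide, was itself called lower in lumbar cord (log2 −2.05, adjusted p = 0.0102 by edgeR's quasi-likelihood test), and Frem3, an extracellular matrix protein, was not (log2 −1.15, adjusted p = 0.105). The genes most like Hoxd9 were Spry4 (0.962) and Galnt11 (0.958), those most like Hoxb9 were Haus7 (0.951) and Rfc5 (0.945), and those most like Hoxd8 were Galnt4 (0.967) and Glud1 (0.956). For Hoxa9 they were Pa2g4 (0.988) and Ppp2cb (0.973), and for Hoxb8 Fam124a and Ms4a6c (0.955 each). Each of these was picked as 1 of the 2 highest among 13737 candidates over only 8 libraries. Such a choice can by itself give high correlations, and no p was computed.

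The next comparison asked whether the segment difference of these genes depended on the genotype. None of the 7 passed (adjusted p 0.888 to 0.995, edgeR's quasi-likelihood test), where 0.00586% of all genes did. Hoxc8 differed between segments by 0.18 less in TKO than in WT on the log2 scale (SE 0.27). With unique reads, which for Hoxc8 are few, the direction turned, to −1.30 (adjusted p = 0.847 by edgeR's quasi-likelihood test). For Hoxd9 the segment difference in TKO minus that in WT was −0.28 (SE 0.55). Its SE leaves room for a difference in either direction. At an unadjusted p under 0.05 there were 0 of the 7, against 3.50% of all genes.

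Between genotypes, all 7 genes were lower in TKO in both segments, although none passed the test. Over both segments the log2 difference, TKO minus WT, was largest for Hoxc8 at −0.53 (SE 0.14, adjusted p = 0.132 by edgeR's quasi-likelihood test), then Hoxb9 at −0.35 (SE 0.10, adjusted p = 0.157) and Hoxa9 at −0.32 (SE 0.13, adjusted p = 0.24). At an unadjusted p under 0.05 these 3 of the 7 differed, against 19.1% of all genes. The median of the 7 was −0.26, against 0.000403 over all genes. Of all genes, 0.357% passed over both segments, 0.041% in lumbar and 0.0352% in thoracic cord, and 33.3% were lower in TKO in both segments. The sign turned for Hoxb8, Hoxc9 or Hoxd9 in some fits without 1 or 2 libraries, and for Hoxc8 in thoracic cord with unique reads (0.38, against −0.62 with all reads). Its exon-exon reads in thoracic cord, nearly the same reads as the unique ones, were 41 and 44 in TKO, against 28 and 43 in WT. Without both TKO replicate 2 libraries, which stood apart in mitochondrial and intron share, the difference over both segments was −0.40 for Hoxc8, −0.34 for Hoxb9, −0.24 for Hoxa9, −0.0896 for Hoxd8 and 0.0168 for Hoxd9. The 7 genes share the same libraries and are not 7 independent counts of that direction.

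In Hoxc8, Hoxa9 and Hoxb9 both TKO libraries were below both WT libraries within each segment, as in 7.51% of all genes. For Hoxb9 the 2 means in lumbar cord were 99.6 CPM in TKO and 127 CPM in WT, and in thoracic cord 78.6 CPM in TKO and 99.6 CPM in WT. None of the 7 separated all 4 TKO from all 4 WT libraries, where 10.7% of all genes did. With DESeq2, Hoxc8 passed over both segments (log2 −0.53, adjusted p = 0.0313), as did 4.56% of the 14750 genes to which DESeq2 gave an adjusted p. For Hoxd9 the difference over both segments was −0.19 (SE 0.28) and its sign turned without thoracic TKO replicate 2 or without thoracic WT replicate 1. Summed markers of meninges, blood and skeletal muscle were mostly lower in TKO libraries, though most single genes did not pass. The 6 meningeal markers, 2 of which passed as lower in TKO over both segments, had sums of 257 to 323 CPM in lumbar TKO and 438 to 583 CPM in lumbar WT, and 200 to 229 CPM in thoracic TKO and 377 to 441 CPM in thoracic WT cord. The 4 blood markers summed to 29.7 to 85.5 CPM in lumbar TKO and 95.2 to 243 CPM in lumbar WT, and 40.7 to 59 CPM in thoracic TKO and 113 to 187 CPM in thoracic WT cord (median log2 −1.67 over both segments, none passed). The 5 skeletal muscle markers summed to 1.68 to 2.38 CPM in lumbar TKO and 3.03 to 5.36 CPM in lumbar WT, and 1.79 to 7.93 CPM in thoracic TKO and 6.18 to 63.5 CPM in thoracic WT cord (median log2 −2.08 over the 3 tested, none passed). Single genes departed from these sums. Pdgfra, a meningeal marker, ran between 98.8 and 135 CPM in TKO and between 108 and 134 CPM in WT libraries. S100a8, a blood marker, ran between 1.66 and 19.2 CPM in TKO and between 4.04 and 5.36 CPM in WT libraries. The highest muscle sum was that of thoracic WT replicate 1, where Myl1 had 28.8 CPM, against 2.52 CPM in replicate 2. The part of these markers in the Hox values was not tested.

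**Figure D4:**
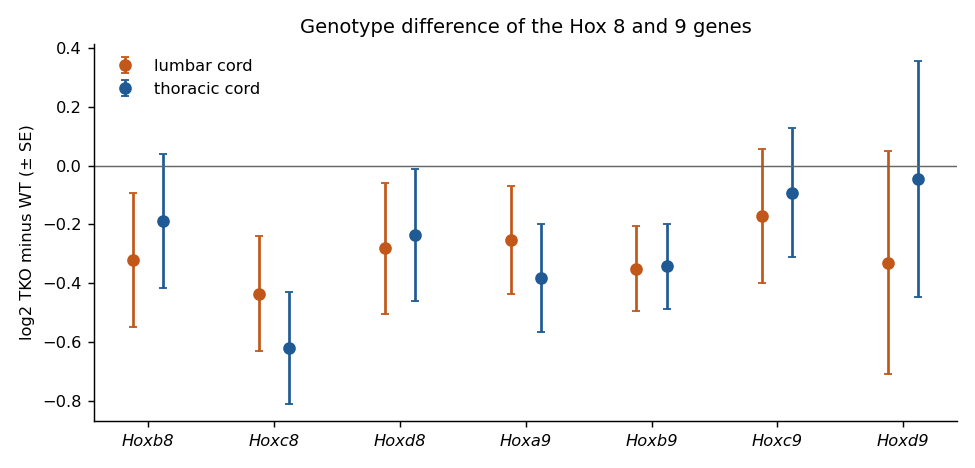
Log2 difference, TKO minus WT, with its SE from edgeR's fit, of the 7 genes (x axis) in lumbar (orange) and thoracic cord (blue). All 14 points lie below 0, between −0.62 (Hoxc8, thoracic) and −0.05 (Hoxd9, thoracic), and none passed the test.

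None of the Hox cofactors, upstream and chromatin regulators or motor column genes was called between segments by edgeR's quasi-likelihood test. At an unadjusted p under 0.05 there were 0 of 9 cofactors, 1 of 18 regulators (Rarb) and 2 of 13 motor column genes (Etv4 and Nos1), against 2.41% of all genes. Of the Hox cofactors of the Pbx, Meis and Pknox families, 9 of 9 were tested, with a median log2 difference of 0.03 and Pbx3 nearest to the threshold (−0.23, SE 0.12). Of 21 upstream and chromatin regulators 18 were tested, with a median of 0.01. Rarb, a retinoic acid receptor, stood at 0.43 (SE 0.16, adjusted p = 1 by edgeR's quasi-likelihood test), and Gdf11, a ligand that advances Hox expression along the axis, at 0.12 (SE 0.12). Of the 13 motor column genes 13 were tested, with a median of 0.13. Etv4, a marker of limb motor pools that depends on Hox activity, stood at 0.44 (SE 0.12), Nos1, a marker of preganglionic neurons, at −0.39 (SE 0.12), Aldh1a2 at 0.82 (SE 0.39) and Isl2 at 0.83 (SE 0.40), each with an adjusted p of 1. The lumbar Etv4 values (32.3 to 39.2 CPM) lay above all thoracic ones (22.4 to 26.8 CPM), while 1.17% of all genes lacked overlap in either direction. Which cells of the bulk cord hold the Etv4 and Nos1 RNA was not tested.

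Promoter sequence was at hand for 4 of the 7 genes, Hoxb8, Hoxd8, Hoxa9 and Hoxd9 (RefSeq on GRCm38.p6, 250 bases before to 50 after the start). The promoters of Hoxb8, the most abundant of the 7 and the one with the smallest segment difference, and of Hoxd9, the gene with the largest difference, are shown to set the pair side by side. The motifs TTTATG and TTTATA, core forms of the site of Cdx proteins, which activate Hox genes in the embryo, were searched on both strands and are in capitals. They matched 4 times in Hoxb8 and 0 times in Hoxd8, Hoxa9 and Hoxd9, and 22.8% of 32851 promoters hold at least 1. The start used for Hoxa9 lies 3719 bases inside the Hoxa9 gene model of the deposited tables, so the 0 for Hoxa9 does not concern the start of that model. The bases G and C made up 42.3% of the Hoxb8 and 68.3% of the Hoxd9 promoter. The Hoxb8 window is chr11:96281655-96281954 and the Hoxd9 window chr2:74697513-74697812, both on the plus strand.
Hoxb8 promoter: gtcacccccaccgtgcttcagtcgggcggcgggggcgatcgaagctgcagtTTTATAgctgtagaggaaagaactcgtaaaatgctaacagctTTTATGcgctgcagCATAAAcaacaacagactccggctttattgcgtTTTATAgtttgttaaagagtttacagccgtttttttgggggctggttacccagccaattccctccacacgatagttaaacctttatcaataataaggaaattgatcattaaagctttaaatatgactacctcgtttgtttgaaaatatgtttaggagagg
Hoxd9 promoter: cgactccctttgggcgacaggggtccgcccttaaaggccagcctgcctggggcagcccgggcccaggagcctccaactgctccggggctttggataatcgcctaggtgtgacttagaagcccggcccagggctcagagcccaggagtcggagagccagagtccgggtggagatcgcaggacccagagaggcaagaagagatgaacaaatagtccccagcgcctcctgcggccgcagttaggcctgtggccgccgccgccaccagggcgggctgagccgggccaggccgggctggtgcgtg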

How the data were processed

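RNA-seq of polyadenylated RNA (a stranded kit, per the labels' protocols) gave 1 deposited table per library. The authors deposited read counts per gene (exon, intron and total) and RPKM, per the file headers. The build was mm10 (submitters' processing notes). Of the aligner, counting program and strand setting nothing is given in the sources used here, so reads of antisense partners could not be told apart. Total gene counts were scaled with TMM, filtered with filterByExpr and tested with edgeR 4.0.16 (quasi-likelihood, robust, Benjamini-Hochberg, threshold 0.05) in 1 fit of all 8 libraries. RPKM was used for levels and, as log2(RPKM + 0.5) or log2(RPKM + 0.1), in limma 3.58.1. Alternatives also used DESeq2 1.42.0. The test was checked on simulated data. Libraries of 1 group differed by more than sampling noise (chi-square over degrees of freedom, 15.6 to 70.9). The main fit did not pair samples by replicate number, and whether the numbers pair them is not known. The correlation of deviations between segments was 0.442 in TKO and −0.208 in WT. Between genotypes, which cannot share a mouse, it was −0.33 in lumbar and 0.313 in thoracic cord, so these values do not decide it. Named were the 7 genes, up to 4 genes of each list with the smallest p, and the 2 genes most alike to each. Members, lists and markers were chosen with earlier results of these data known. R 4.3.3, Python 3.11.15 and pandas 2.3.3 were used.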

Additional observations from a re-analysis of the deposited data

How the results depend on the processing

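Of 1127 recomputed differences of the 7 genes, 1057 kept their direction and their side of the threshold, 10 lost the threshold, 9 gained it and 51 changed sign. The 10 were all the Hoxc8 segment difference over both genotypes, including −1.40 with unique reads (adjusted p = 0.658) and −1.06 with the replicate 2 libraries of TKO left out (adjusted p = 0.0599). The Hoxd9 difference ran between 1.29 and 2.19 and the Hoxc9 difference between −0.80 and −0.49. No value was had for Hoxc9 with unique reads, which left too few to test.

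The sign changes concerned values that had not passed the test. For Hoxb8, lumbar minus thoracic in TKO was 0.0064 with limma-voom, 0.0545 and 0.0554 with limma on RPKM, 0.0059 with the replicate block, 0.0051 with crossed numbers and 0.26 without both TKO replicate 2 libraries. Without both thoracic replicate 1 libraries it was −0.12 in WT and −0.21 over both genotypes. The difference of segment differences turned to 0.15 (Hoxb8), 0.06 (Hoxd8) and 0.0372 (Hoxb9) without both TKO replicate 2 libraries, to −1.30 (Hoxc8) with unique reads, and for Hoxb9 to 0.0109 with upper quartile factors, 0.0135 and 0.0146 on RPKM and 0.0089 with exon reads. TKO minus WT in thoracic cord turned to 0.38 for Hoxc8 with unique reads, against −0.62 with all reads, and to 0.0142 (Hoxc9) and 0.40 (Hoxd9) without both TKO replicate 2 libraries, where Hoxd9 over both segments was 0.0168.

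Leaving out 1 library at a time, the ranges that held a sign change were −0.29 to 0.31 (TKO), −0.12 to 0.38 (WT) and −0.0871 to 0.21 (both) for the segment difference of Hoxb8, and −0.0781 to 0.23 for Hoxa9 in WT. For the difference of segment differences they were −0.41 to 0.20 (Hoxb8), −0.32 to 0.18 (Hoxd8), −0.0374 to 0.28 (Hoxa9), −0.10 to 0.0766 (Hoxb9), −0.35 to 0.14 (Hoxc9) and −0.96 to 0.33 (Hoxd9). For TKO minus WT they were −0.44 to 0.0681 (Hoxc9, lumbar), −0.52 to 0.0908 (Hoxb8, thoracic), −0.18 to 0.0092 (Hoxc9, thoracic), −0.66 to 0.63 (Hoxd9, thoracic) and −0.50 to 0.15 (Hoxd9, both segments).

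Counts of called genes moved more. Lumbar minus thoracic in TKO had 8 calls, and 18 with DESeq2, 14 with no filter, 19 with the replicate block and 5 to 11 without 1 library. In WT it had 7, and 20 with DESeq2, 11 with no filter, 18 with the replicate block, 19 in a fit of 4 libraries, 16 without both TKO replicate 2 libraries and 4 to 11 without 1 library. Over both genotypes it had 14, and 34 with DESeq2, 46 with the replicate block and 9 to 19 without 1 library. The difference of segment differences had 1, and 2 with DESeq2, 0 with limma on RPKM at either pseudocount, with unique and with exon reads, 3 with the replicate block and 0 to 2 without 1 library. TKO minus WT in lumbar cord had 7, and 41 with DESeq2, 1 and 1 on RPKM, 17 with no filter, 2 with exon reads, 16 without both TKO replicate 2 libraries and 1 to 6 without 1 library. In thoracic cord it had 6, and 429 with DESeq2, 2 and 2 on RPKM, 65 with no filter, 11 with the replicate block, 23 in a fit of 4 libraries, 13 without both TKO replicate 2 libraries, 0 without both thoracic replicate 1 libraries and 0 to 11 without 1 library. Over both segments it had 61, and 672 with DESeq2, 6 and 6 on RPKM, 310 with no filter, 104 with unique reads, 12 with exon reads, 222 with the replicate block, 10 without both thoracic replicate 1 libraries and 7 to 194 without 1 library. With the WT numbers crossed, a pairing added after seeing the data as was leaving out both thoracic replicate 1 libraries, the 4 contrasts that involve segments had 39 (TKO), 379 (WT), 68 (both) and 345 (their difference) calls. The causes were not tested.

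The SE of the segment difference over both genotypes was 0.16 for Hoxb8, 0.16 for Hoxd8 and 0.13 for Hoxa9 on the log2 scale, from 4 libraries per segment.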

Other observations

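The thoracic replicate 1 libraries of both genotypes stood apart from the replicate 2 libraries in the Hox genes. Of the 7 Hox 8 and 9 genes, 5 were higher in replicate 1 than in replicate 2 in both genotypes, as were 32.5% of all genes. The ratio of replicate 1 to replicate 2 was 2.10 in TKO and 2.19 in WT for Hoxd9, 1.43 and 3.11 for Hoxc10 and 1.33 and 2.81 for Hoxa10. It was 0.661 in TKO and 0.709 in WT for Hoxb8, 0.735 and 0.858 for Hoxa7, and 0.87 and 0.638 for Hoxc6. For Hoxc8 the ratio was 1.18 in TKO and 1.19 in WT, for Hoxd8 1.17 and 1.33, and for Hoxa9 1.15 and 1.24. For Hoxc9 it was 1.15 and 1.05, and for Hoxb9 0.965 and 1.05. Hoxd10 had 1 read in TKO and 10 in WT replicate 1, and 0 in replicate 2 of both. Hoxd9, Hoxc8, Hoxd8, Hoxa9, Hoxc9, Hoxa10 and Hoxc10 were thus higher, and Hoxb8, Hoxa7 and Hoxc6 lower, in the same 2 libraries. Both libraries are thoracic replicate 1 by their labels, and no cause was tested.

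Few reads of any Hox gene spanned 2 exons. Among 25 Hox genes with enough exon reads, the share ran from 0% (Hoxa2) to 5.39% (Hoxc10), and Hoxb8 was the second lowest at 0.145%. In Hoxb8, 7 such reads fell in lumbar and 20 in thoracic cord, a ratio of 0.366 (95% counting interval 0.131 to 0.901), while its exon reads as a whole stood at a ratio of 1.06 (1.03 to 1.09). The interval covers counting error only, and no cause of the low share was tested.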
